A study of Mus musculus with 6 samples.

Results

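The solute carrier families 1, 3, 6, 7, 36, 38 and 43 hold most of the membrane proteins that move amino acids across mouse cell membranes. The set was chosen with earlier results of these data known, and its members were picked by gene symbol. Every gene of the array annotation whose symbol starts with one of the 7 family names and a member number was kept, which gave 63 of 18193 genes. Each gene was read by its brightest probe set among those paired with 1 gene. The 63 members include 3 genes named for a neighbour on the opposite strand (Slc7a6os, Slc36a1os and Slc6a19os), which are not carriers, and several carriers of other substrates, such as Slc6a8 for creatine and Slc6a4 for serotonin. The annotation paired 1 further probe set with a member and with another gene, and that probe set was not used.

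The samples were 3 of juxtaglomerular (JG) cells and 3 of renal mesenchymal stromal cells (MSC). JG cells, the renin-making cells of the afferent arteriole, were sorted as YFP-positive cells from adult C57BL6 mice that carried Ren1c YFP, a reporter of the renin gene. MSC came from adult mice of the same strain and genotype, were sorted by the surface antigen CD44 and were then grown to confluence in medium with serum. The labels repeat that growth medium for the JG samples, so whether JG cells were cultured is not settled by them, and cell type, sort and culture cannot be told apart in this design. Nothing in the labels ties the samples of a group to different mice or different cultures, so each p-value measures the spread between these samples, which may be technical.

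RNA was measured on 1-colour Affymetrix mouse arrays, and array medians ran from 27.4 to 36.5 in JG and from 27.3 to 34.1 in MSC. All 20 measured proximal tubule markers other than members of the set were called higher in JG, and their summed intensity was 53466 to 71647 in the JG samples, against 1083 to 1174 in the MSC samples. Of 14 markers of the loop, distal tubule and collecting duct 13 were called higher in JG, as were 5 of 10 endothelial and 4 of 13 leukocyte markers. The 13 became 12 and 14 without JG samples 1 and 2, and 11 without any other sample. Of 13 measured renin cell markers 6 were higher in JG and 1 in MSC. Ren1 itself was not analysed here, because no probe set paired with it alone was found. Stromal markers were higher in MSC for 8 of 13, and the 8 became 10 and 9 without JG samples 1 and 2 and 6 without any other sample. Cd44 was among the 8 and encodes the antigen by which MSC were sorted, so it is not a marker independent of the sort. The stromal markers higher in JG were 2, Thy1 and Nt5e. The 2 became 3 without JG sample 1 and 1 without any other sample, and Nt5e kept its call only without JG sample 1. Without MSC samples 1, 2 and 3 the endothelial count was 2, 1 and 1, the leukocyte count 1, 2 and 1 and the renin cell count 3, 4 and 4, and the endothelial count was also 2 without JG sample 3. The summed loop and distal signal was 14739 to 23346 in JG and 143 to 149 in MSC, the endothelial sum 1033 to 1200 and 141 to 152, and the leukocyte sum 1573 to 4051 and 106 to 407. The renin cell sum was 4920 to 5155 in JG and 1368 to 1818 in MSC, and the stromal sum 6645 to 12889 in JG and 49175 to 52872 in MSC. The part of tubule RNA in the results on carriers was not tested, and in such bulk samples fewer cells of a type and less RNA per cell cannot be told apart.

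Amino acids filtered by the glomerulus are taken back almost completely by the proximal tubule. Carriers of its brush border draw them in with sodium, protons or other amino acids, and carriers of the basolateral membrane hand them on to the blood. Some carriers are pairs, in which a heavy chain of family 3 brings a light chain of family 7 to the membrane. Growing cells rely on another group, which imports leucine, arginine, glutamine, serine and cystine, and several genes of that group are known targets of ATF4, a transcription factor that acts when amino acids run short.

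Of the 63 members, 12 were called higher in JG (19.0%) and 9 higher in MSC (14.3%), with 42 not called. A call is an adjusted p under 0.05 in limma over all genes. Among all genes the same rule called 7.70% higher in JG and 7.71% higher in MSC. The median log2 difference of the members was 0.11, beside 0.07 over all genes. Members lay between -3.78 and 5.38. Log2 differences are JG minus MSC on log2 of the intensity plus 16 unless another addition is named, a value after ± is the SE, and the added 16 understates the change of dim genes. Without MSC samples 1, 2 and 3 in turn the 12 became 9 each time, and the 9 became 5, 5 and 6. Leaving out JG samples 1, 2 and 3 gave 15, 14 and 11 members on the JG side and 9, 7 and 8 on the MSC side. By role, carriers of the tubule's membranes made up 10 of the 12, and uptake carriers of growing cells 4 of the 9. The rest of the 9 were Slc6a6, from the basolateral and osmolyte list, Slc1a6, Slc36a4, Slc38a6 and Slc7a6os. The role lists were chosen with earlier results of these data known, so these counts are a description and not a test.

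**Figure D1:**
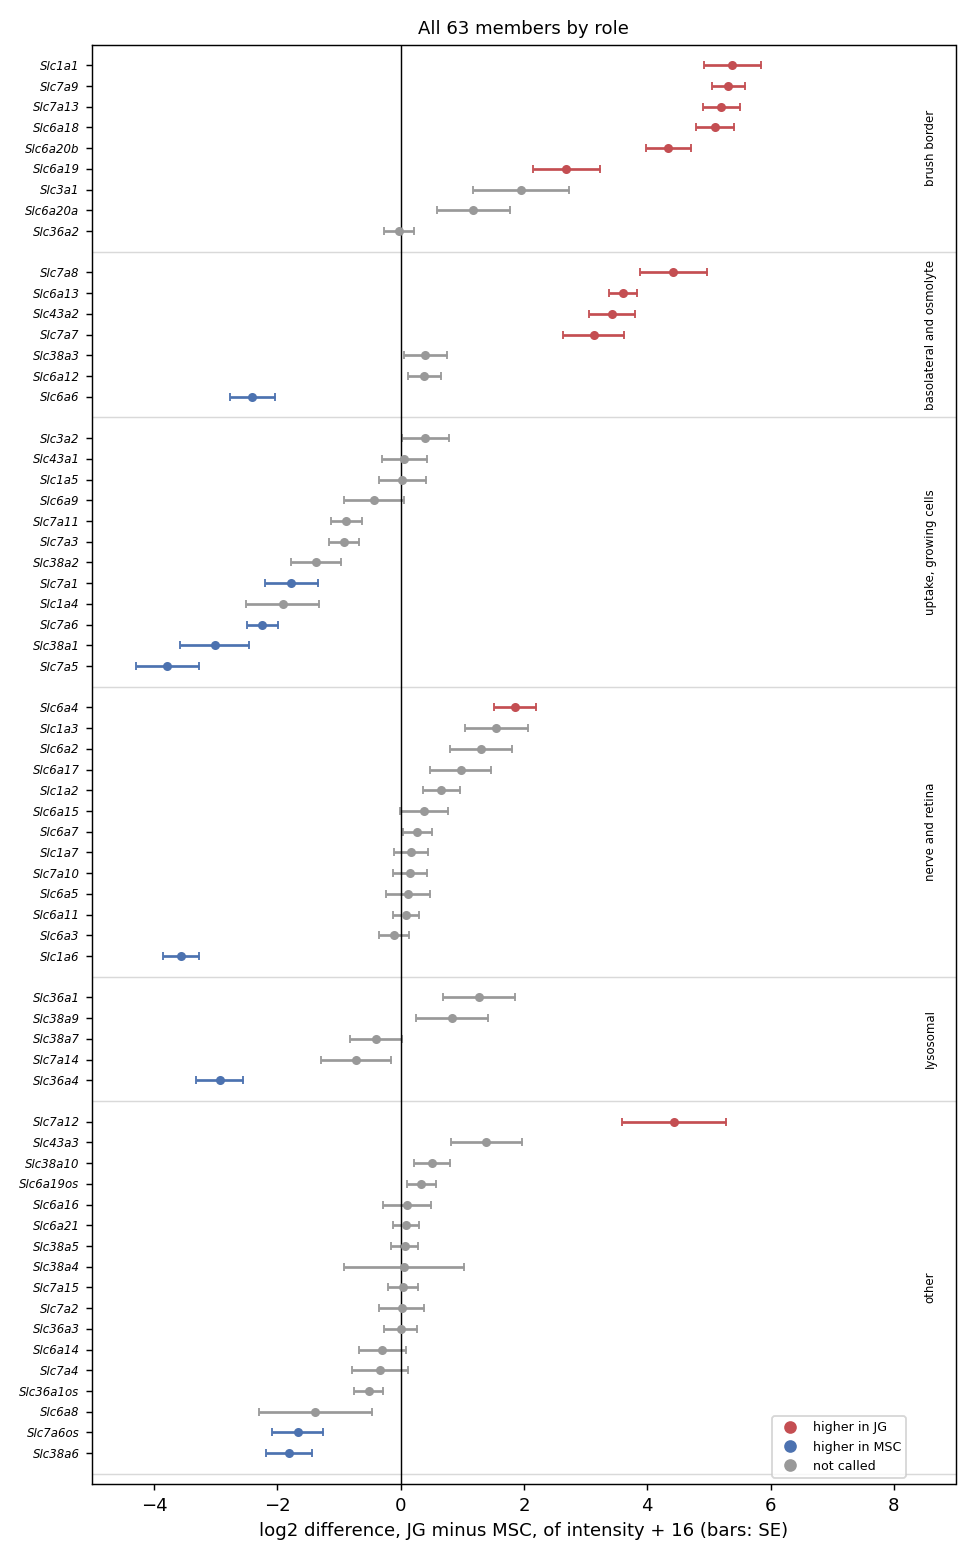
Log2 difference (JG minus MSC, of intensity plus 16; bars are the SE of the fit) of all 63 members, grouped by role from top to bottom and ordered within each role. Points in red were called higher in JG, points in blue higher in MSC and points in grey were not called; 6 of 9 brush border carriers are red, and 4 of 12 uptake carriers are blue with none red.

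Brush border carriers gave the 4 largest positive differences of the set. Of 9, 6 were called higher in JG and none in MSC, their median log2 difference was 4.34, and the 6 became 5 when JG sample 3 or an MSC sample was left out and 7 when JG sample 2 was. Slc1a1, the sodium-driven carrier of glutamate, aspartate and cysteine, had intensities of 1634, 500 and 1341 in JG samples 1 to 3 and of 9.86, 11.5 and 6.55 in MSC samples 1 to 3. The groups did not overlap, and the difference was 5.38 ± 0.46 (adjusted p = 0.000989). Its other 2 probe sets were also called higher in JG, by 4.85 and 2.20.

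Slc7a9 encodes the light chain of the cystine and dibasic amino acid exchanger, which is faulty in cystinuria. It stood at 1041, 629 and 950 in JG and 5.97, 6.08 and 5.49 in MSC, with no overlap (5.32 ± 0.27, adjusted p = 0.000128). The 3 MSC values were nearly equal and dim, so the size is set by the JG samples and the added 16. Slc7a13, a light chain for aspartate, glutamate and cystine found late in the proximal tubule of mice, had 890, 747 and 478 in JG and 1.00, 3.50 and 4.62 in MSC (5.20 ± 0.30, adjusted p = 0.000195). A second Slc7a13 probe set, with 76.3, 13.4 and 146 in JG and at most 4.02 in MSC, was higher by 1.99 but was not called (adjusted p = 0.0850 over all probe sets).

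Neutral amino acid carriers of family 6 were next. Slc6a18, a chloride-dependent carrier of glycine and other neutral amino acids, had 432, 717 and 844 in JG and 1.00, 5.98 and 2.75 in MSC (5.10 ± 0.31, adjusted p = 0.000243). JG sample 1 was the lowest of its group here, unlike in most of the other members higher in JG. Slc6a19, which lies next to Slc6a18 in the genome and encodes the main neutral amino acid carrier of the brush border, had 247, 53.0 and 157 in JG and 2.94, 2.37 and 17.5 in MSC (2.69 ± 0.54, adjusted p = 0.0227). Its call was less secure. It was lost without JG sample 3 (adjusted p = 0.0717) or without MSC sample 1 (0.0928), 2 (0.0972) or 3 (0.0577), and its second probe set, at 280, 43.4 and 89.2 in JG and 17.1, 21.1 and 26.8 in MSC, was not called (1.71, adjusted p = 0.109 over all probe sets). That second probe set stands for the gene when brightness is taken as the mean log2 value.

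The 2 neighbouring copies Slc6a20a and Slc6a20b were read differently. Slc6a20b had 555, 286 and 496 in JG and 15.4, 3.39 and 1.39 in MSC (4.34 ± 0.37, adjusted p = 0.000916), and its second probe set was called as well (3.76). Slc6a20a had 84.3, 2.78 and 20.1 in JG and 2.15, 2.34 and 1.66 in MSC, without a call (1.18 ± 0.59, adjusted p = 0.227). JG sample 2 was barely above the MSC samples for Slc6a20a. Whether the probe sets of these copies read only their own gene was not tested. Slc36a2, a proton-driven carrier of glycine and proline, was dim, at 9.22, 4.87 and 10.9 in JG and 9.01, 12.6 and 4.98 in MSC, with overlap (-0.03 ± 0.24, adjusted p = 0.950).

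**Figure D2:**
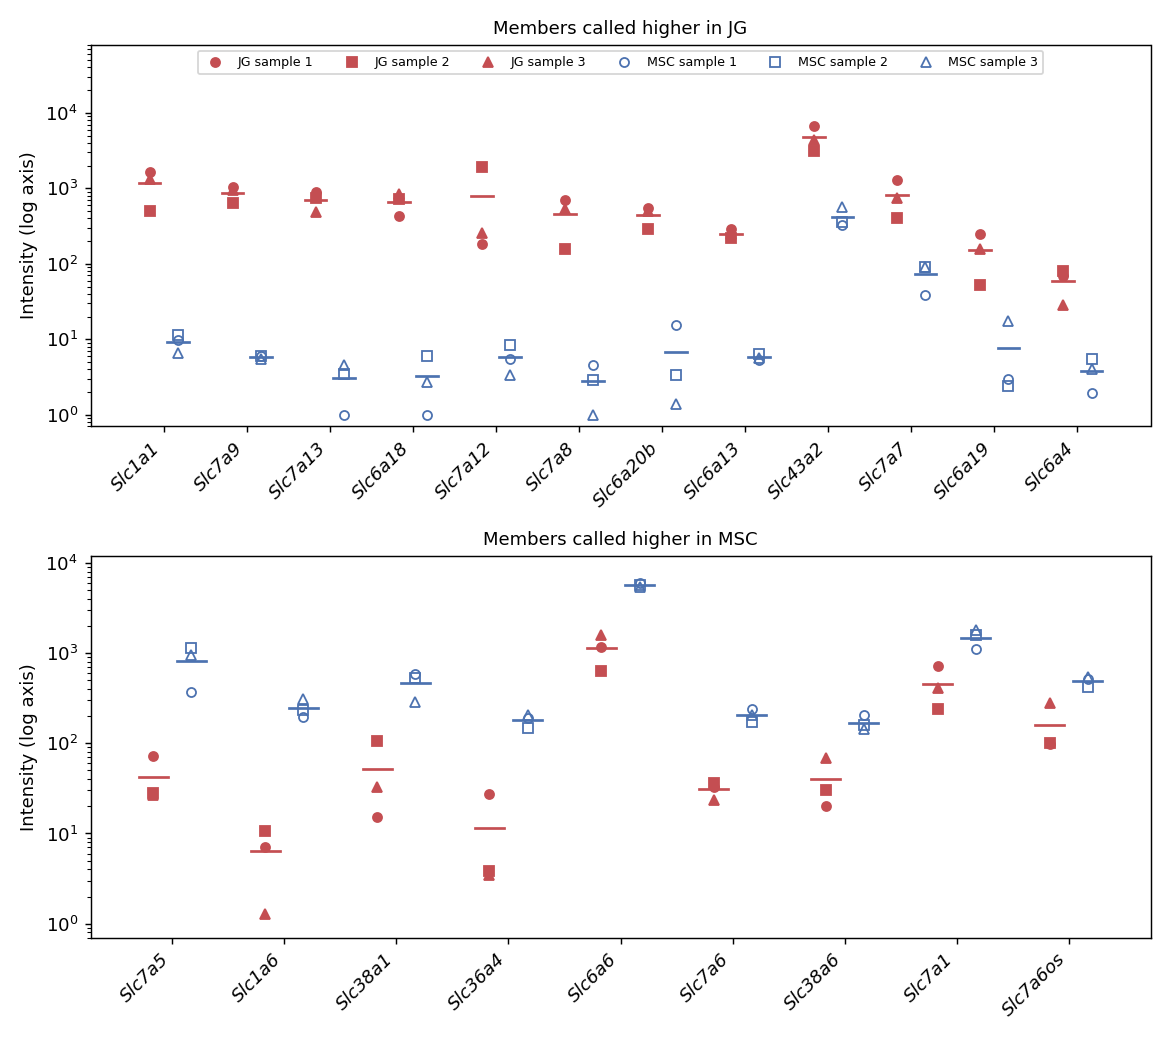
Intensity on a log axis in each sample of the 12 members called higher in JG (upper panel) and the 9 called higher in MSC (lower panel), JG in filled red and MSC in open blue, with a marker shape per sample number and a line at each group mean. No gene's groups overlap, and JG values spread more widely than MSC values for Slc7a12, Slc36a4 and Slc38a1.

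Slc3a1, the heavy chain that carries Slc7a9 and, in mice, Slc7a13 to the membrane, did not follow its light chains into the called genes. It had 1356, 137 and 685 in JG and 135, 132 and 97.2 in MSC. The groups did not overlap, but JG sample 2 lay just above the highest MSC sample, and the difference of 1.95 ± 0.78 was not called (adjusted p = 0.144). Without JG sample 2 it was 2.85 and was called (adjusted p = 0.00815). In the same JG sample 2 Slc7a9 and Slc7a13 were at 629 and 747.

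The promoter windows that RefSeq gives for GRCm38.p6 (250 bases before a gene's start and 50 after) were searched for letters of HNF4 and HNF1 proteins. Hnf4a, which encodes a nuclear receptor of the proximal tubule, was itself higher in JG, at 947, 515 and 1322 against 12.2, 15.7 and 12.8 in MSC (4.90 ± 0.37, adjusted p = 0.000594). The letters CAAAGTCCA, favoured by HNF4 proteins, were searched on both strands. They occurred in 0.475% of all 32851 windows. The 46 members with a window had 67 windows, so a count of members is not on the scale of a share of windows. Of the 46 members 1, Slc3a1, had the letters. That stretch is shown because it is the single match among the members. It lies at chr17:85028268-85028346 on the plus strand, with the match in capitals, and the match starts 39 bases before the gene's start.
Slc3a1: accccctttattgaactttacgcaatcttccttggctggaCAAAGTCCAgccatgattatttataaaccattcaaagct
The palindrome of HNF1 proteins (GTTAAT, any base, ATTAA, any base) was searched likewise and was in 0.0609% of all windows and in none of the 46 members'. Windows were at hand for 6 of the 9 brush border carriers. A match of letters is a description and not a site shown to be bound.

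Carriers of the basolateral membrane were mostly higher in JG too. Of 7 basolateral and osmolyte carriers 4 were called higher in JG and 1 in MSC, the median log2 difference was 3.13, and both counts were the same with any 1 sample left out. Slc7a8, the light chain of an exchanger of neutral amino acids, had 690, 155 and 526 in JG and 4.5, 2.92 and 1.00 in MSC (4.42 ± 0.54, adjusted p = 0.00378). Slc7a7, the light chain that releases arginine and lysine to the blood and is faulty in lysinuric protein intolerance, had 1284, 400 and 736 in JG and 38.1, 90.1 and 89.7 in MSC (3.13 ± 0.50, adjusted p = 0.0102). JG sample 2 was the lowest of its group for both light chains, and no JG sample overlapped an MSC sample. The second Slc7a7 probe set was likewise called higher in JG (3.37).

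Slc43a2, which lets leucine, phenylalanine and methionine out by facilitated diffusion, had 6696, 3165 and 4347 in JG and 330, 355 and 569 in MSC (3.43 ± 0.37, adjusted p = 0.00235). Its lowest JG value was well above its highest MSC value, and the signal in MSC was itself far above the added 16. Of its other probe sets 1 was called higher in JG (4.59), and another was higher by 1.31 without a call (adjusted p = 0.0772 over all probe sets). Slc6a13, a carrier of GABA, betaine and taurine, had 288, 218 and 246 in JG and 5.26, 6.31 and 5.72 in MSC (3.61 ± 0.22, adjusted p = 0.000236). These were among the tightest values of the set, with no overlap. The gene beside it in the genome, Slc6a12, which takes up betaine in the renal medulla, was dim throughout, at 5.96, 16.3 and 5.78 in JG and 1.15, 6.55 and 1.97 in MSC; it had no call (0.38 ± 0.27, adjusted p = 0.374). Slc38a3, a glutamine carrier of the proximal tubule, was also dim, at 1.86, 11.1 and 22.9 in JG and 1.60, 8.48 and 2.97 in MSC, and had no call (0.40 ± 0.35, adjusted p = 0.471).

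Slc6a6, the taurine carrier that many cells use to balance their volume, went the other way. The probe set that stood for it had 1181, 632 and 1590 in JG and 5988, 5700 and 5360 in MSC, without overlap (-2.40 ± 0.37, adjusted p = 0.00892). This call depends on the probe set. Another with 2780, 2052 and 2405 in JG and 3459, 4671 and 4018 in MSC was lower in JG by only 0.74 on the log2 scale and was not called (-0.74, adjusted p = 0.0990 over all probe sets). It becomes the gene's probe set when brightness is taken as the mean log2 value. The other 2 were at -1.81 and -0.87, not called.

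**Figure D3:**
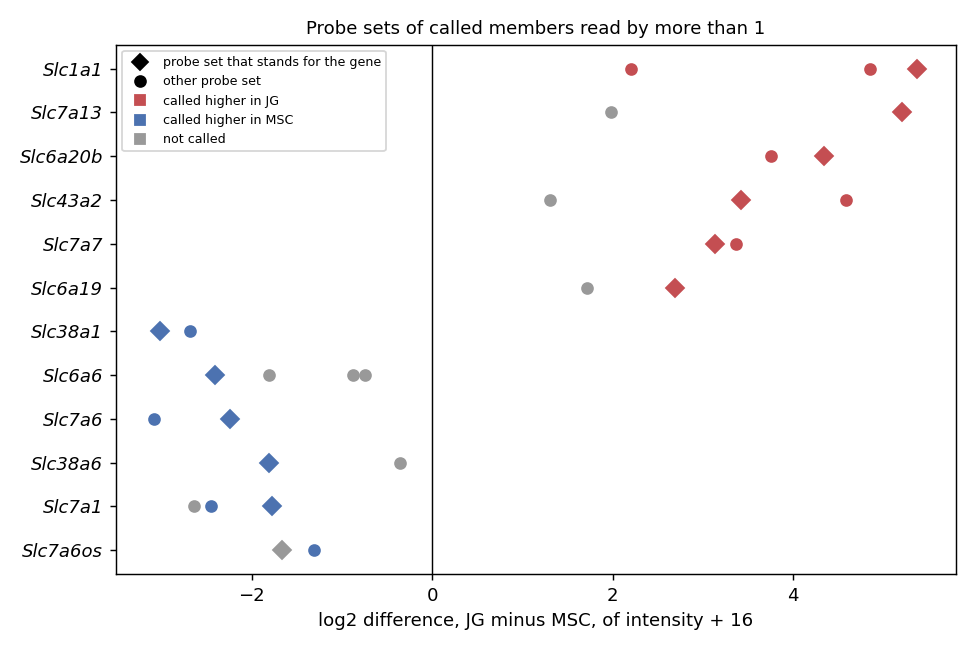
Log2 difference (JG minus MSC, of intensity plus 16) of each probe set of the 12 called members that have more than 1, with a diamond for the probe set that stands for the gene and circles for the others; red and blue mark calls over all probe sets and grey marks no call. All probe sets of a gene lie on the same side of 0; in 8 of the 12 genes a circle is coloured, the diamond of Slc7a6os is grey, and Slc6a6, Slc6a19, Slc7a13 and Slc38a6 have only grey circles.

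Called members with more than 1 probe set numbered 12. A further probe set shared the call and its direction in 8 of them, and in none was one called the opposite way. Over all 34945 probe sets paired with 1 gene 12.9% were called.

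Uptake carriers of growing cells leaned to MSC. Of 12, 4 had calls on the MSC side and none on the JG side, and their median log2 difference was -1.14. In 8 of 12 every JG sample lay below every MSC sample, an arrangement that 18.7% of all genes showed. The count of 4 was 2, 2 and 3 without MSC samples 1, 2 and 3, and 5, 4 and 3 without JG samples 1, 2 and 3. Slc7a5, the light chain of the leucine and large neutral amino acid exchanger LAT1, had 72.5, 28.4 and 26.8 in JG and 375, 1144 and 955 in MSC (-3.78 ± 0.51, adjusted p = 0.00561). Slc7a6, the light chain of an exchanger of arginine and glutamine, had 32.4, 36.8 and 23.6 in JG and 239, 172 and 208 in MSC (-2.24 ± 0.25, adjusted p = 0.00249). Both light chains were clear of overlap, and the calls of both stood whichever sample was left out. The second Slc7a6 probe set was lower in JG by more (-3.08).

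Slc38a1, a sodium-driven importer of glutamine, had 15.3, 107 and 32.6 in JG and 582, 525 and 289 in MSC (-3.02 ± 0.56, adjusted p = 0.0171). Its call was lost without JG sample 3 (adjusted p = 0.0587) or MSC sample 1 (0.0755) or 2 (0.0788), while its second probe set was also called (-2.69). Slc7a1, the main importer of arginine and lysine in most cells, had 718, 241 and 412 in JG and 1105, 1573 and 1792 in MSC (-1.77 ± 0.43, adjusted p = 0.0414). This call was the closest to the threshold among the carriers. Leaving out JG sample 1 alone kept it, and otherwise the adjusted p ran from 0.0577 without JG sample 2 through 0.102 (JG sample 3), 0.0904 (MSC sample 1) and 0.141 (MSC sample 2) to 0.155 without MSC sample 3. Of its other 2 probe sets 1 was called lower in JG (-2.45).

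Another 4 uptake carriers, by the probe set that stood for each, were lower in every JG sample than in every MSC sample without reaching the threshold. Slc1a4, a carrier of alanine, serine and cysteine, had 775, 168 and 254 in JG and 954, 1075 and 1952 in MSC (-1.91 ± 0.59, adjusted p = 0.0808). JG sample 1 stood near the MSC samples here, and without it the difference was -2.52 (adjusted p = 0.00948). Its other 2 probe sets were called lower in JG (-1.66 and -1.34). Slc38a2, which cells switch on when amino acids or water are short, had 802, 418 and 1252 in JG and 1920, 2026 and 1956 in MSC (-1.37 ± 0.41, adjusted p = 0.0727, and 0.0403 without JG sample 3). Its MSC values were close together, and JG sample 2 was the lowest. Of its other probe sets 1 was lower in JG (-1.41), and 1 overlapped with the opposite sign at 235, 976 and 386 in JG and 620, 181 and 445 in MSC (0.26); neither was called. Slc7a3, an arginine importer, was dimmer, with 16.9, 27.5 and 19.9 in JG and 44.7, 64.1 and 55.3 in MSC (-0.92 ± 0.24, adjusted p = 0.0515, and 0.0417 without JG sample 2).

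Slc7a11, the light chain of the cystine and glutamate exchanger that feeds glutathione synthesis, was dim in both groups. It had 1.78, 4.35 and 9.49 in JG and 28.8, 17.2 and 22.6 in MSC (-0.88 ± 0.26, adjusted p = 0.0672). The groups did not overlap, but values this low are damped by the added 16. With an added 1 the difference was -2.12 (adjusted p = 0.0495). A second probe set, under 8 in every sample, was at 0.13 and not called. The remaining uptake carriers overlapped between groups. Slc1a5, the glutamine carrier ASCT2, had 123, 41.7 and 104 in JG and 90.4, 80.6 and 72.1 in MSC (0.03 ± 0.38, adjusted p = 0.965). Slc43a1, a leucine carrier, had 27.9, 5.66 and 10.6 in JG and 20.6, 13.7 and 4.48 in MSC (0.06 ± 0.37, adjusted p = 0.927). Neither differed in a set direction across samples. Slc6a9, the glycine carrier GlyT1, had 226, 93.5 and 183 in JG and 116, 263 and 334 in MSC (-0.43 ± 0.48, adjusted p = 0.576).

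Heavy chain Slc3a2, the partner of Slc7a5, Slc7a6, Slc7a7, Slc7a8, Slc7a10 and Slc7a11, was bright in both groups and not called. It had 2033, 904 and 1409 in JG and 832, 916 and 1452 in MSC (0.40 ± 0.39, adjusted p = 0.513). Of its 6 light chains, Slc7a7 and Slc7a8 were called higher in JG and Slc7a5 and Slc7a6 higher in MSC. Slc7a11 was lower in every JG sample without a call. Slc7a10, a carrier of small neutral amino acids known from brain, overlapped at 5.79, 17.3 and 9.84 in JG and 9.36, 12.3 and 3.13 in MSC (0.15 ± 0.28, adjusted p = 0.752). The partners of 1 heavy chain thus differed between the cell samples in opposite directions, while the heavy chain itself passed the test in neither. Intensities of different probe sets are not on a common scale, so the amount of heavy chain per light chain was not compared.

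**Figure D4:**
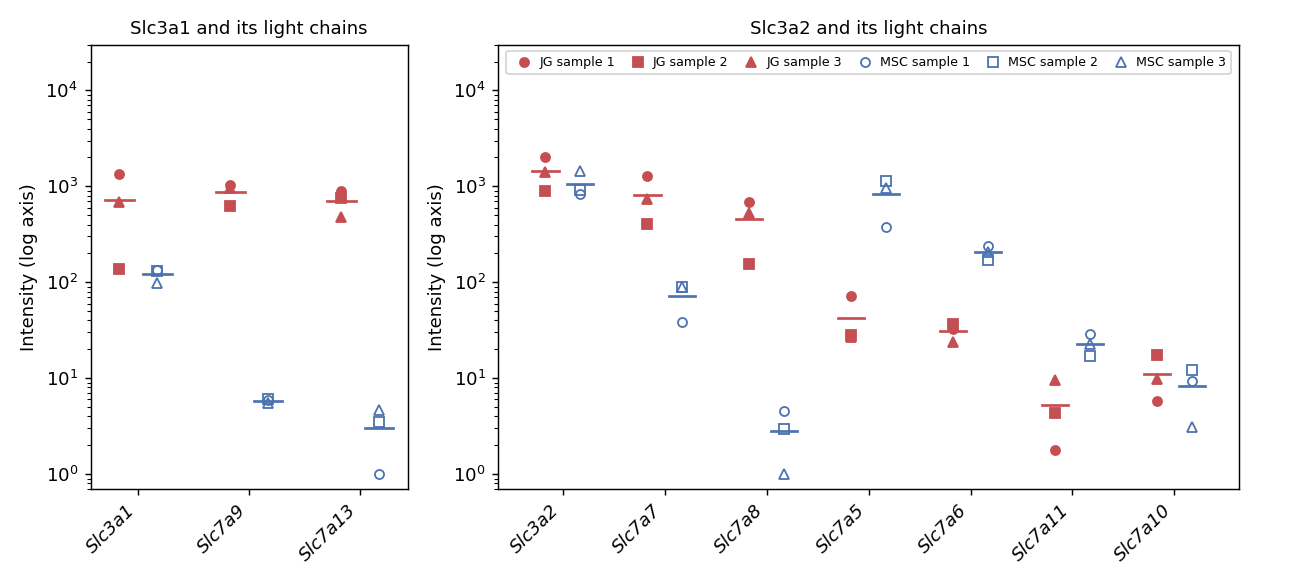
Intensity on a log axis of heavy chain Slc3a1 with its light chains (left panel) and heavy chain Slc3a2 with its light chains (right panel), JG in filled red and MSC in open blue, with a marker shape per sample number and a line at each group mean. Slc7a9, Slc7a13, Slc7a7 and Slc7a8 are higher in all JG samples, Slc7a5, Slc7a6 and Slc7a11 are lower in all JG samples, and Slc3a2 overlaps.

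Promoter windows were also searched for TGATGNAAN on both strands, the amino acid response element to which ATF4 binds with a partner. It was found in 3.95% of all windows, a share that a count of members with 67 windows cannot be set against. Of 46 members 4 had it: 2 of the 8 uptake carriers with a window (Slc7a11 and Slc1a4), Slc7a7 and Slc6a21. The first 3 are shown because they were lower in all JG samples (Slc7a11 and Slc1a4) or higher in all JG samples (Slc7a7), with matches in capitals. Slc7a11 has 2 matches, on opposite strands, that start 66 and 48 bases before the gene's start. Its stretch lies at chr3:50443614-50443719, that of Slc1a4 at chr11:20332710-20332758 and that of Slc7a7 at chr14:54417937-54418125, all on the minus strand and printed as the gene reads.
Slc7a11: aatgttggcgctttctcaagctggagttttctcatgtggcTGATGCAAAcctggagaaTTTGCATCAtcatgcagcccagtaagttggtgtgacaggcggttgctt
Slc1a4: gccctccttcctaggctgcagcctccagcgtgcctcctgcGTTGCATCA
Slc7a7: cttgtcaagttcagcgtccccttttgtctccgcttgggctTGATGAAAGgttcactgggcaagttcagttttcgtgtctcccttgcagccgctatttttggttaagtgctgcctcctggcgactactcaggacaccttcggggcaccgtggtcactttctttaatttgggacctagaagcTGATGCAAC
Of these 3 members Slc7a7 alone was called. Slc7a5, Slc38a1 and Slc7a3 had no window in the table.

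Carriers best known from nerve tissue and retina were largely dim, and 11 of 13 were not called. Slc6a4, the serotonin carrier, had 69.3, 79.8 and 28.4 in JG and 1.95, 5.41 and 4.02 in MSC (1.85 ± 0.35, adjusted p = 0.0176). Its groups were apart, but leaving out MSC sample 1 (adjusted p = 0.0783), 2 (0.0704) or 3 (0.0769) ended the call. Slc1a6, the glutamate carrier EAAT4 of cerebellar Purkinje cells, was the other call and stood out by its steadiness. It had 7.15, 10.8 and 1.27 in JG and 198, 234 and 314 in MSC (-3.56 ± 0.29, adjusted p = 0.000775), and its adjusted p was at most 0.00865 with any 1 sample left out. Only 1 probe set read it.

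Some uncalled nerve carriers were nonetheless above MSC in all JG samples. Slc1a3, the glial glutamate carrier, had 14.8, 87.2 and 85.6 in JG and 12.3, 4.28 and 6.36 in MSC (1.55 ± 0.51, adjusted p = 0.0946), and its 6 probe sets did not share a direction. Slc6a17, a vesicle carrier of neutral amino acids, had 251, 958 and 357 in JG and 229, 241 and 186 in MSC (0.98 ± 0.49, adjusted p = 0.230), while its other 2 probe sets were lower in JG (-0.61 and -0.48, not called). Slc6a2, the noradrenaline carrier, overlapped at 21.4, 109 and 70.1 in JG and 7.16, 27.7 and 10.5 in MSC (1.31 ± 0.51, adjusted p = 0.136). Without JG sample 1 the list had 4 calls higher in JG in place of 1. Nerve and Schwann cell markers had 0 of 8 called higher in JG and 2 called higher in MSC (Ncam1 and Tubb3). The 2 became 1 when any sample but MSC sample 3 was left out, Tubb3 losing its call each time. The summed intensity of the 8 markers was 404 to 794 in JG and 3124 to 3806 in MSC. Most of the MSC sum was Ncam1, which had 3111, 2899 and 3109 in MSC and 258, 22.95 and 118 in JG. Every JG sample lay above every MSC sample for 3 of the 8 markers and below for 2, arrangements that 20.2% and 18.7% of all genes showed. In JG sample 2 the glial factor gene Sox10 was at 665, beside 33.1 and 123 in JG samples 1 and 3 and 16.1 to 21.9 in MSC; its part in these values was not tested. The other 8 nerve carriers stayed under 40 in each sample.

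Lysosomal carriers held 1 call among 5. Slc36a4, a carrier of proline and tryptophan, had 27.5, 3.83 and 3.47 in JG and 189, 149 and 206 in MSC (-2.93 ± 0.38, adjusted p = 0.00467), with no overlap and a call that held with any 1 sample left out. Its relative Slc36a1, which exports amino acids from the lysosome, had 230, 65.6 and 380 in JG and 59.7, 56.0 and 87.6 in MSC, with overlap and no call (1.27 ± 0.59, adjusted p = 0.193). Slc38a9, the arginine sensor that signals to the growth kinase mTORC1, had 49.0, 119 and 322 in JG and 63.4, 65.4 and 65.2 in MSC (0.83 ± 0.58, adjusted p = 0.373), and its 7 probe sets lay on both sides of 0. Slc38a7 and Slc7a14 overlapped between the groups.

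The remaining 17 members included 1 call higher in JG and 2 higher in MSC. Slc7a12, a light chain of mouse kidney whose heavy chain is not known, had 181, 1916 and 253 in JG and 5.46, 8.42 and 3.35 in MSC (4.43 ± 0.84, adjusted p = 0.0189). JG sample 2 was the highest here, where it was the lowest of its group for 8 of the 12 members higher in JG. Leaving out MSC sample 1 (adjusted p = 0.0761), 2 (0.0749) or 3 (0.0826) ended the call. Slc38a6, a member of the glutamine carrier family known from brain, had 20.2, 30.3 and 69.4 in JG and 204, 161 and 144 in MSC (-1.81 ± 0.37, adjusted p = 0.0238). It lost its call without JG sample 2 (adjusted p = 0.0513) or MSC sample 1 (0.0980), 2 (0.0910) or 3 (0.0807), and its second probe set was not called (-0.35).

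Slc7a6os, which lies next to Slc7a6 and encodes no carrier, was also called higher in MSC. It had 99.3, 101 and 281 in JG and 514, 421 and 543 in MSC (-1.67 ± 0.42, adjusted p = 0.0445), and the call held only without JG sample 3 among the 6 fits with 1 sample left out (adjusted p from 0.0597 without JG sample 1 through 0.0916, 0.123 and 0.143 without JG sample 2 and MSC samples 2 and 1 to 0.159 without MSC sample 3). Over all probe sets the same values had an adjusted p of 0.0502, and a second, dimmer probe set was called (-1.32). Bright members without a call were Slc38a10, with 3106, 5468 and 4373 in JG and 2746, 3452 and 2680 in MSC, and Slc6a8, with 1123, 103 and 1150 in JG and 1207, 1091 and 2040 in MSC. Slc7a2, an arginine carrier, and Slc43a3, a nucleobase carrier, were at 317 to 674 and 329 to 435 in JG and at 314 to 544 and 41.5 to 236 in MSC. Of the 42 uncalled members, 21 were under 50 in every sample, and 8 of all 63 were under 16 in every sample.

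The JG samples were also ranked within their group for each gene. JG sample 2 was the lowest of the 3 for 8 of the 12 and for 17 of 20 proximal tubule markers. JG sample 1 was the highest for 9 of the 12 and for 12 of the 20, and JG sample 3 for 1 of the 12 and 7 of the 20. Whether members and markers share an order was not tested. For the 9 members higher in MSC each JG sample was the highest in 3. The median SD of a member on the log2 scale was 0.58 in JG and 0.22 in MSC, beside 0.55 and 0.26 over all genes.

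Calls were also counted by family, with no test between families. The counts include the 3 os genes, which are not carriers: Slc7a6os, called higher in MSC, in family 7, and the uncalled Slc6a19os and Slc36a1os in families 6 and 36. Family 7 had 5 called higher in JG and 4 higher in MSC of 16, and family 6 had 5 and 1 of 21. Family 38, the sodium-coupled neutral amino acid carriers, had none higher in JG and 2 higher in MSC of 9. Family 1 had 1 and 1 of 7, family 36 had 0 and 1 of 5, family 43 had 1 and 0 of 3, and neither heavy chain of family 3 was called.

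Of 19 measured genes in the list of brush border partners and other amino acid or peptide carriers, 11 were called higher in JG, none in MSC and 8 not called (median 1.61), a count that became 7 when JG sample 3 or an MSC sample was left out and 8 when JG sample 2 was. Cltrn, the collectrin that family 6 carriers need to reach the brush border, had 5110, 3927 and 4869 in JG and 4.47, 12.8 and 2.63 in MSC (7.70 ± 0.27, adjusted p = 4.83e-05). Mep1a, Dpep1 and Pdzk1 (peptidases that release amino acids, and a scaffold of the brush border) had differences of 6.36, 6.09 and 5.69. Slc15a2, which takes up di- and tripeptides, and Slc16a10, a basolateral carrier of aromatic amino acids, were higher by 4.83 and 3.39. Ggt1 and Slc17a8 were not analysed here.

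A list of the transcriptional response to amino acid shortage was counted next. Of its 12 genes 7 were called higher in MSC and 1 in JG (median -1.56), and the 7 became 4, 3 and 3 without MSC samples 1, 2 and 3. Asns, asparagine synthetase, had 40.5, 5.62 and 25.1 in JG and 1357, 1113 and 2067 in MSC (-5.32 ± 0.43, adjusted p = 0.000787). Trib3, a pseudokinase that ATF4 switches on, was at -6.26, the folate enzyme gene Mthfd2 at -3.63 and the glutathione-degrading enzyme gene Chac1 at -3.16. Shmt2, a mitochondrial serine enzyme, was the 1 called higher in JG (1.31), a call lost without any 1 of the MSC samples. Atf4 itself was not called, at 1699, 2573 and 2910 in JG and 3639, 3216 and 3022 in MSC (-0.49 ± 0.28, adjusted p = 0.284).

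Other lists were mixed. Of 14 genes of amino acid sensing at the lysosome Rragd was called higher in JG (1.17) and Rptor higher in MSC (-1.48), with a median of 0.04; without JG sample 1 the counts were 4 and 2, without any MSC sample both were 0, and without JG sample 3 the first was 0. Of 7 genes of glutathione synthesis and turnover Ggct, Gss, Oplah and Gsr were higher in JG (3.06, 2.26, 2.04 and 1.53) and none in MSC, and the 4 became 2, 3 and 2 without MSC samples 1, 2 and 3. Of 7 measured transcription factors of kidney epithelium Hnf4a, Ppara, Tfcp2l1 and Maf were higher in JG (4.90, 3.99, 3.84 and 1.25), and Cux1 was higher in MSC (-1.09). Pax8 was lower in every JG sample without a call, at 128, 186 and 83.6 in JG and 261, 277 and 326 in MSC (-1.09, adjusted p = 0.0681). Hnf4g overlapped between the groups and was not called (-0.05). The JG count was 3 without JG sample 3 or any 1 of the MSC samples. The single call of Cux1 was lost in those same 4 fits, and without JG sample 2 there were 2 on the MSC side.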

How the data were processed

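Total RNA was labelled as biotinylated cRNA and hybridised to Affymetrix arrays, per the labels' protocols. The values the authors deposited are linear intensities, 1 for each probe set on each array. Their summary method, background correction and scaling are not stated in the labels. The platform annotation gives 1 gene for 34945 of 45037 probe sets, and the brightest by mean intensity stood for each of 18193 genes. Gene IDs of 34741 of these probe sets were found in RefSeq's table for GRCm38.p6, and 0 symbols changed. There are no detection calls, so low values are intensities and not absence, and 34.4% to 41.5% of values per array were below 16.

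Log2 of the intensity plus 16 was compared, JG minus MSC, in limma 3.58.1 under R 4.3.3 (lmFit, then eBayes). No normalization, filter or covariate was added, and p-values were adjusted over the 18193 genes by Benjamini-Hochberg. The number of arrays limits the precision. On simulated data of 18193 genes with 200 changed, the fit found 0%, 37.2% and 95.0% of those changed by 1, 2 and 4 on the log2 scale. The simulated noise of a gene had the same spread in both groups. In the data the median SD over all genes was 0.55 in JG and 0.26 in MSC, and 2803 genes were called. The simulated shares therefore need not hold for these data. Every member could be named, and per-sample values of uncalled nerve, lysosomal and other members were picked after they were seen. From the other lists up to 4 called genes with the largest difference were named. Slc15a2, Slc16a10, Shmt2, Atf4, Cux1, Pax8, Hnf4g, Thy1, Nt5e, Cd44, Ncam1, Tubb3 and Sox10 were added after their values were seen. Members and lists were chosen with earlier results of these data known. Promoter sequences are RefSeq's. Figures were drawn with matplotlib 3.10.9.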

Additional observations from a re-analysis of the deposited data

How the results depend on the processing

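Beside leaving out samples, 12 alternatives were tried, 1 of which (the brightest probe set by mean log2 value) was chosen after seeing the data. Of the 4 counts reported (members higher in JG, members higher in MSC, brush border carriers higher in JG and uptake carriers higher in MSC), the first became 19 with array weights in place of 12, and the last became 7 in place of 4 when probe sets of a gene were averaged; the others stayed within 1.5 times. Leaving out 1 sample gave 9 to 15, 5 to 9, 5 to 7 and 2 to 5, in that order. Over all genes, 2803 were called, 6429 with array weights, 1594 with the replicate block and 1149 to 5301 with 1 sample left out. The brightest probe set by mean log2 value ended the calls of Slc6a19 (adjusted p = 0.0989) and Slc6a6 (0.0938), the mean of probe sets those of Slc38a6 (0.123) and Slc6a6 (0.0935), a pseudocount of 64 those of Slc6a19 (0.0589), Slc7a12 (0.0772) and Slc7a6os (just over the threshold), a pseudocount of 1 those of Slc7a1 (0.0615) and Slc7a6os (0.0653), quantile normalization (0.0505) and the intensity trend with robust variance (0.0609) that of Slc7a6os, and the replicate block those of Slc6a4 (0.0504), Slc38a6 (0.0731), Slc7a1 (0.0967) and Slc7a6os (0.0673). No called member changed sign in any setting. Uncalled members near 0 did: Slc36a2 was at 0.07 with array weights and ran from -0.14 to 0.08 with 1 sample left out (0.08 without JG sample 2 or MSC sample 2), Slc1a5 ran from -0.22 to 0.42 (-0.22, -0.11 and -0.04 without JG samples 1 and 3 and MSC sample 3), Slc43a1 was at -0.01 with array weights and ran from -0.23 to 0.28 (-0.23 without JG sample 1 and -0.17 without MSC sample 3), Slc6a9 was at 0.01 with the mean of probe sets, and Slc7a10 ran from -0.01 to 0.29 (-0.01 without JG sample 2 or MSC sample 3). No pairing by sample number was seen: deviations of same-numbered JG and MSC samples from their group means correlated at -0.199, -0.008 and -0.011. The other pairs of a JG and an MSC sample ran from -0.122 to 0.128. With 3 samples per group a small shared effect could be missed. With the replicate block 11 members were called higher in JG and 6 higher in MSC, 6 brush border carriers higher in JG and 3 uptake carriers higher in MSC. Of the calls over all genes 49.9% were higher in JG, and 61.9% and 63.5% without MSC samples 2 and 3. The causes of these changes were not tested. Leaving out any 1 sample leaves fewer degrees of freedom, and the count over all genes moved both ways. It was 5301, 2835 and 1931 without JG samples 1, 2 and 3. Without MSC samples 1, 2 and 3 it was 1235, 1170 and 1149. Over all genes JG samples 1 and 2 correlated at 0.797, and JG sample 3 with each of them at 0.882. MSC samples correlated with each other at 0.971 to 0.975. JG sample 1 correlated with MSC samples 1, 2 and 3 at 0.802, 0.812 and 0.808, more than with JG sample 2. JG samples 2 and 3 correlated with the MSC samples at 0.675 to 0.775. The part of this in the calls was not tested.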
